A study of Mus musculus with 15 samples.

Results

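Suppressor cells grown from bone marrow in culture (MDSC) were set against spleen cells of mice given G-CSF (arrays coded GFW), gene by gene, on single-colour mouse arrays. The comparison takes 6 of the 15 arrays of the series, chosen by their titles: 3 titled MDSC and 3 titled Mo CD34+ with the code GFW. Both groups come from C57Bl/6 mice. The MDSC arrays hold Ly6C+CD11b+ cells that grew out of marrow kept with G-CSF, GM-CSF and IL-13, and no treatment of the donor mice is named for them. The GFW arrays hold cells taken straight from the spleen of G-CSF-treated mice, sorted for CD11b and CD34 after exclusion of cells with CD4, CD8, Ly6G, B220 or Ter119. The groups therefore differ in tissue, cytokines, time in culture and sorting gate at once, and these cannot be told apart. Run prefix and group are the same split as well: every MDSC title starts with one prefix and every GFW title with another, so a difference between runs cannot be told apart from one between cells. A further 3 arrays, coded RB, carry the same cell, strain and treatment labels as GFW under another prefix. Their comparison with MDSC, from the same fit, is given side by side. It uses the same 3 MDSC arrays and is not an independent repeat. The remaining arrays, coded GFK (titled Mo CD34+ ko) and GFE (titled Mo CD34+ ex), share the prefix of GFW. They enter the fit but not the comparison.

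Myeloid-derived suppressor cells are immature granulocytic and monocytic cells that restrain T cells, in part by consuming arginine through arginase or by making nitric oxide with iNOS, the product of Nos2. G-CSF drives the formation of neutrophils and releases progenitors and myeloid cells into blood and spleen. IL-13 binds a receptor made of Il4ra and Il13ra1, which activates STAT6 and turns on alternative activation genes such as Arg1 and Ccl17, while GM-CSF signals mainly through STAT5. Developing neutrophils make their granule proteins in waves: primary granules at the promyelocyte stage, secondary and tertiary granules later, and receptors such as Cxcr2 as they mature.

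Values are log2 RMA signals, so a difference of 1 is a 2-fold difference. The test took in 14822 of 22180 genes, those whose signal passed the 40th percentile of probe sets (5.34 to 5.58 log2) on 3 or more arrays. A gene is called where the limma p-value, adjusted over all genes tested, is under 0.05. Where the mean of the lower group lies below the 40th percentile of probe sets, the fold is given as a lower bound ("at least"), taken on each array against that percentile or the gene's own signal, whichever is higher. The labels do not say whether the 3 arrays of a group come from separate cultures or mice. The p-values then measure only the spread between these arrays, which may be technical, and 3 arrays a group limit the precision. Array medians lay between 5.55 and 5.61 log2 for MDSC and between 5.69 and 5.70 log2 for GFW.

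A marker that the gate excludes was high on the GFW arrays. Ly6g, the neutrophil surface antigen that the gate removes, was at 12.21, 12.15 and 12.19 log2 on the GFW arrays, and at 6.28 ± 0.10 log2 (SD, n = 3) on the RB arrays. It was at 5.83, 5.78 and 5.78 log2 on the MDSC arrays. The GFW arrays thus carried signal of a gate-excluded marker that the RB arrays did not, and neutrophil genes below are given with both sets. Itgam, which encodes CD11b, was at 11.67 ± 0.05 log2 in GFW and 10.32 ± 0.05 log2 in MDSC (SD, n = 3), a difference of -1.35. Cd34 was at 6.61, 6.83 and 7.20 log2 in MDSC and at 7.39, 7.18 and 6.99 log2 in GFW. These arrays overlapped, and the difference of -0.31 was not called (SE 0.16, adjusted p = 0.0988). Against RB, whose label names the same CD34 sort, Cd34 was higher in MDSC by 0.96. Ly6c2, which encodes the Ly6C antigen of the MDSC label, was 1.99-fold higher in MDSC than in GFW (12.69 ± 0.06 against 11.70 ± 0.13 log2, SD, n = 3). The other Ly6C gene, Ly6c1, was below the filter, at 4.87 to 5.37 log2 in MDSC and 4.15 to 4.60 log2 in GFW. Probe sets for this gene family may share sequence. Ptprc, the CD45 antigen of all white cells, was at 10.86 ± 0.06 log2 in MDSC and 12.53 ± 0.03 log2 in GFW. Cd4 (5.82 against 6.22 log2) and Cd8a (5.21 against 6.10 log2) were low in both groups, and the difference of Cd8a (-0.90) was called.

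Most genes differed between the groups. Of 14822 genes, 4781 were called higher in MDSC (32.3%) and 4444 lower (30.0%), which makes 62.2% called in all. When each array was centred on its own median, the split became 5306 higher and 3094 lower, and the median difference of all genes moved from -0.08 to 0.04. Normalising the 6 arrays again among themselves gave 4351 higher and 4622 lower, and leaving out the filter gave 4762 and 5141, so which side holds more calls depends on the setting. The larger differences leaned to the MDSC side: 2412 genes (16.3%) were called higher by at least 2-fold and 1124 (7.58%) lower by at least 2-fold. At 8-fold and above the numbers were 151 higher and 133 lower. The arrays of both groups did not overlap for 10466 genes (70.6%). Against RB, 4057 genes were called higher in MDSC (27.4%) and 3073 lower (20.7%), with 9.86% higher and 6.58% lower by at least 2-fold. Arrays of one group lay close together, at a root mean square distance of 0.225 to 0.251 log2 within MDSC and 0.305 to 0.315 log2 within GFW. The distance between MDSC and GFW arrays was 1.057 to 1.081 log2, and between MDSC and RB arrays 0.902 to 0.952 log2. A call by itself thus says little here, and the size of a difference is given throughout. List counts below stand beside these shares of all genes: 32.3% higher and 30.0% lower against GFW, 27.4% and 20.7% against RB. Where a list lies near these shares, its count is no result about its members.

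**Figure D1:**
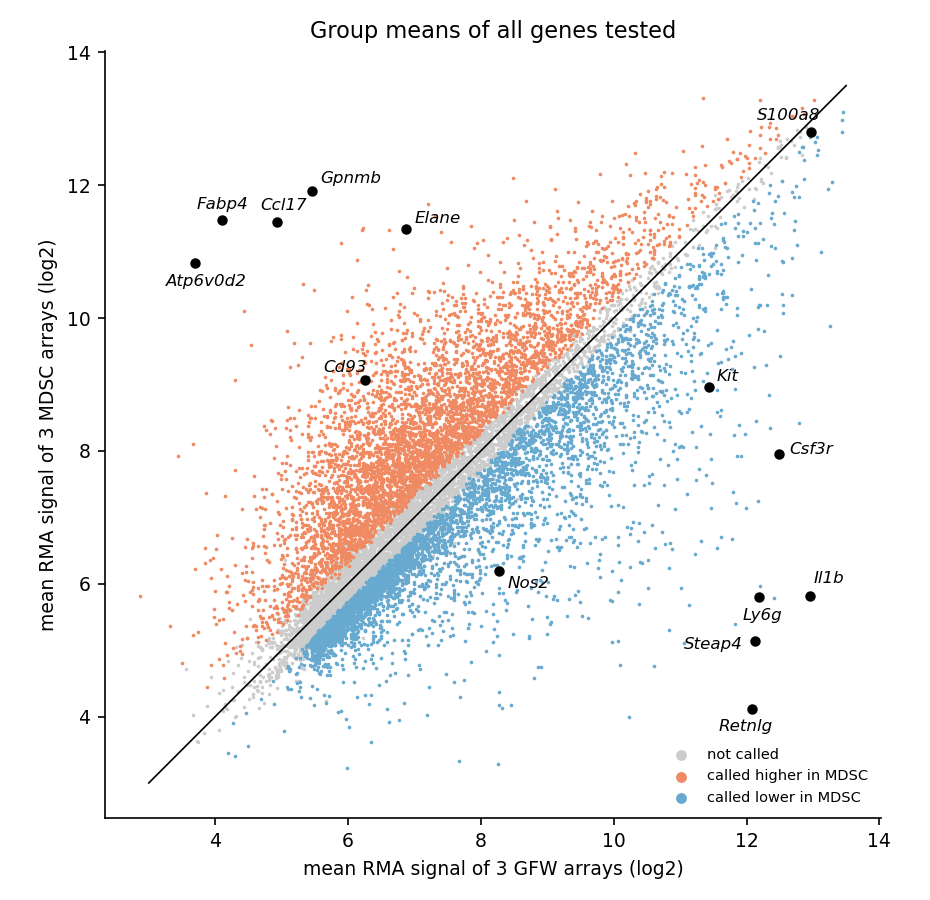
Mean RMA signal (log2) of the 3 MDSC arrays (vertical axis) against the 3 GFW arrays (horizontal axis) for all 14822 genes tested, with equality as a line. Orange points are genes called higher in MDSC, blue points genes called lower and grey points genes not called, with 14 labelled genes in black. Fabp4, Atp6v0d2, Ccl17 and Gpnmb lie far above the line, and Retnlg, Il1b, Ly6g and Steap4 far below it.

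The 4 genes set as markers of the comparison fell on both sides. Ccl17, a chemokine for Ccr4-bearing T cells that IL-4 and IL-13 induce, was at 11.66, 11.44 and 11.22 log2 in MDSC and at 4.59, 5.20 and 4.99 log2 in GFW. It was at least 59.4-fold higher in MDSC (fitted difference 6.51, SE 0.27, adjusted p = 1.44e-11) and also stood above RB by 6.40. Cd93, a lectin-like surface receptor of progenitors, monocytes and endothelium, was at 9.04, 9.08 and 9.07 log2 in MDSC and at 6.22, 6.38 and 6.18 log2 in GFW, or 6.97-fold higher (difference 2.80, SE 0.18, adjusted p = 1.75e-09). Against RB, whose mean was 8.52 log2, the difference of Cd93 was 0.54. Ly6g was lower in MDSC by 83.9-fold (difference -6.39, SE 0.10, adjusted p = 3.60e-16), while against RB the difference was -0.48. Nos2 was at 6.14, 6.17 and 6.26 log2 in MDSC and at 8.09, 8.32 and 8.43 log2 in GFW. Its RNA signal was thus 4.25-fold lower in MDSC (difference -2.09, SE 0.12, adjusted p = 4.40e-10). RB arrays had Nos2 at 5.98 ± 0.21 log2 (SD, n = 3), and the difference of 0.21 from MDSC was not called (adjusted p = 0.16). Only for Ccl17 of these 4 were the 2 comparisons of like size.

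**Figure D2:**
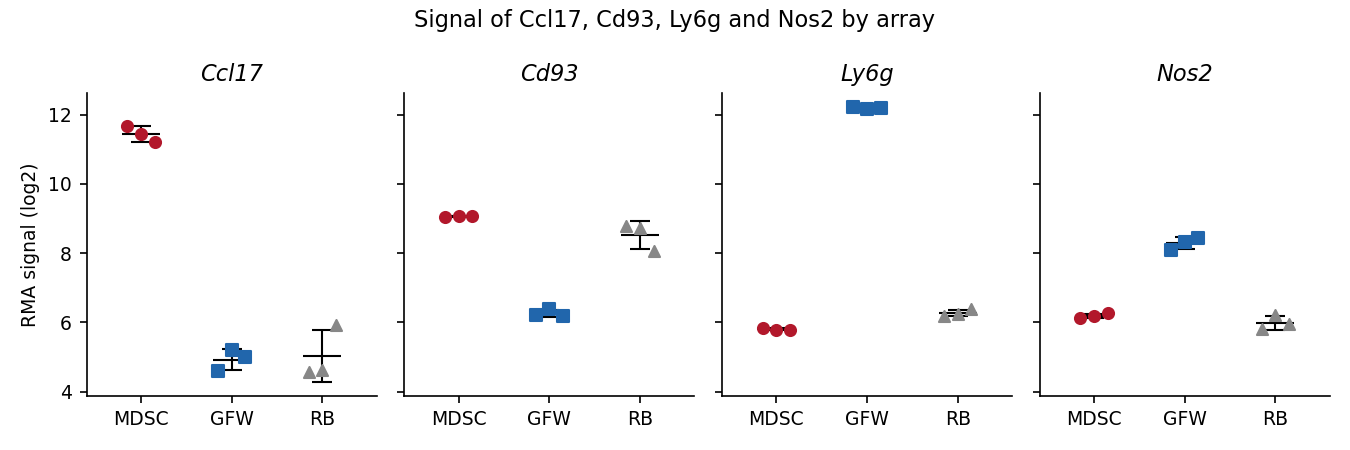
RMA signal (log2) of Ccl17, Cd93, Ly6g and Nos2 on each array of the MDSC, GFW and RB groups. Points are arrays, and the bars give the mean ± SD of 3 arrays. The GFW arrays stand apart from both other groups for Cd93, Ly6g and Nos2, and the MDSC arrays for Ccl17.

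Among protein-coding genes with a name beyond a clone or model number, the 15 with the largest called difference on the MDSC side were led by Fabp4, Atp6v0d2, Ccl17 and Gpnmb. Fabp4, a fatty acid carrier of macrophages and fat cells, was at 11.43, 11.54 and 11.46 log2 in MDSC and at 4.09, 4.44 and 3.77 log2 in GFW, at least 61-fold higher (fitted difference 7.38, SE 0.23). Atp6v0d2, a subunit of the vesicular proton pump, was at least 39-fold higher (fitted difference 7.13), and Gpnmb, a glycoprotein of lysosome-rich macrophages, at least 82.4-fold higher (fitted difference 6.45). Next came Rnase2a, an eosinophil-type ribonuclease whose relatives are near-identical in sequence (5.66), and Lpl, lipoprotein lipase (5.24). Mmp12, the macrophage elastase, differed by 5.20 and Tfec, a transcription factor of the Mitf family, by 5.14. The rest of the 15 genes with the largest difference were Ms4a3 (5.11), Emp1 (5.07), Scd1 (4.93), Il7r (4.76), Dab2 (4.74), Cyp11a1 (4.73) and Klk1b11 (4.71), with Ccl17. Klk1b11 has close paralogues that its probe set may share. Against RB the difference of Fabp4 was 3.75, of Lpl 1.99 and of Emp1 1.79, and RB arrays carried them at 7.73, 9.15 and 7.81 log2. Mmp12 (5.55) and Cyp11a1 (5.10) differed from RB about as much as from GFW.

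On the GFW side the 15 such genes were led by Retnlg, Il1b, Steap4 and Slfn4. The microRNA gene Mir290a (-6.23) would stand among them but codes for no protein. Retnlg, a resistin-like protein of neutrophils, was at 12.07, 12.09 and 12.09 log2 in GFW and at 4.05, 3.99 and 4.30 log2 in MDSC, at least 104-fold lower in MDSC (fitted difference -7.97, SE 0.13, adjusted p = 7.11e-16). Il1b, interleukin 1 beta, was at 12.92, 12.97 and 12.96 log2 in GFW and at 5.29, 6.06 and 6.11 log2 in MDSC, 141-fold lower (difference -7.13). Steap4, a metalloreductase, followed with -6.99, Slfn4 with -6.64, Prok2, a secreted chemoattractant, with -6.42, and Mmp9, a gelatinase of tertiary granules, with -6.22. The interferon-induced Oasl2 (-5.95), Rtp4 (-5.52) and Oas2 (-5.08) were among the 15, as were Adam19 (-5.85), Trim30b (-5.47), Ly6i (-5.33), Asprv1 (-5.11), Hdc, histidine decarboxylase (-5.01), and Ly6g. The families of Slfn4, Trim30b and Ly6i hold close copies. For Steap4 (-0.14), Prok2 (0.14) and Asprv1 (0.44) the difference from RB was not called, and for Ly6g it was small. Il1b (-5.12), Oas2 (-4.83), Rtp4 (-4.61) and Oasl2 (-4.40) were also far lower in MDSC than in RB.

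IL-4 and IL-13 response genes were mostly higher in MDSC. The list was chosen with earlier results of these data known. It also holds genes with other inputs, such as Tfrc, which every dividing cell uses. The part of IL-13 in these differences was not tested. Of 19 tested members of 20, 15 were called higher and 2 lower, with a median difference of 2.17 (all genes: 32.3% higher, 30.0% lower, median -0.08). Among chemokines of the list, Ccl24, an eosinophil attractant, was at 9.54, 9.36 and 8.89 log2 in MDSC and at 5.93, 5.77 and 5.89 log2 in GFW, 10.5-fold higher. Ccl22 was 8.7-fold higher (9.15 ± 0.28 against 6.03 ± 0.52 log2, SD, n = 3). Among receptors, Mrc1, the mannose receptor, was at 11.15, 11.16 and 11.13 log2 in MDSC and at 7.48, 7.38 and 7.79 log2 in GFW, 12.1-fold higher, and the lectin Mgl2 was at least 6.33-fold higher. Cish, a feedback inhibitor of cytokine receptors that STAT5 induces, was 15.5-fold higher (10.71 ± 0.10 against 6.76 ± 0.11 log2, SD, n = 3). Chil3, a chitinase-like secreted protein, was 4.51-fold higher than in GFW, but its difference from RB was -0.09 and not called. Arg1, arginase 1, was low in all 6 arrays, at 6.71, 6.29 and 7.15 log2 in MDSC and at 5.46, 5.48 and 5.49 log2 in GFW. The MDSC arrays did not overlap GFW, and Arg1 was at least 2.26-fold higher (fitted difference 1.24, SE 0.20, adjusted p = 5.47e-05). The 2 members called lower were Clec7a, the beta-glucan receptor (-1.71), and Fcer2a (-0.51), whose call was lost in 3 of 6 fits that left out an array, while Alox15 (0.42) and Egr2 (0.39) were not called. Retnla, a textbook alternative activation gene, was below the filter, at 3.94 to 4.99 log2 in MDSC. Against RB, 14 members were called higher and 1 lower, with a median of 1.98.

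The Ccl17 promoter is shown because this gene had the largest difference of the list and holds the spacing of the STAT6 site, TTC and GAA with any 4 bases between them, in capitals. It is the 250 bases before the start, from RefSeq on GRCm38.p6, chr8:94810203-94810452, plus strand. The match begins 154 bases before the start.
Ccl17: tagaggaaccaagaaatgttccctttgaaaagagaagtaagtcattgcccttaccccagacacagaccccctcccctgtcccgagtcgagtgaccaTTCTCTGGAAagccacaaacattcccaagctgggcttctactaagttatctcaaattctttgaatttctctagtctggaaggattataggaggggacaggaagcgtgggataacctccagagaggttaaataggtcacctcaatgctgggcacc
On either strand these letters occur in 1923 of 32851 such windows of the promoter table, or 5.85%. Of the list's 17 called genes, 13 had a window, 17 windows in all, and 5 windows held a match, those of Ccl17, Clec7a, Fcer2a and Pdcd1lg2. Clec7a and Fcer2a are the members that were lower in MDSC. A match is a description of the letters and does not show a site in use.

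Genes of a list of cytokine receptors were mostly lower in MDSC. The list holds receptor chains for G-CSF, GM-CSF and IL-13, the cytokines used for growth or mobilisation. It also holds Kit, Flt3, Csf1r and Il3ra, which bind other cytokines, so its counts and median do not describe the first kind alone. Of 10 tested genes, 9 were called lower and 1 higher, with a median of -1.81. Csf3r, the G-CSF receptor, was at 7.99, 7.86 and 8.03 log2 in MDSC and at 12.55, 12.49 and 12.43 log2 in GFW, 23.1-fold lower (difference -4.53, SE 0.10, adjusted p = 2.12e-14). Il13ra1, the IL-13 binding chain, was at 7.53, 7.29 and 7.70 log2 in MDSC and at 11.54, 11.42 and 11.47 log2 in GFW, 15.7-fold lower, and its partner Il4ra was 6.2-fold lower. MDSC were thus lower in receptor chains for G-CSF and IL-13. G-CSF was also given to the GFW mice, and the cause of these differences was not tested. Kit, the stem cell factor receptor of progenitors, was at 8.94, 8.81 and 9.14 log2 in MDSC and at 11.52, 11.41 and 11.36 log2 in GFW, 5.55-fold lower. RB arrays had Kit at 5.52 log2, so MDSC were higher than RB by 3.44. Flt3 differed by -2.43 and Csf1r, the M-CSF receptor, by -1.18. The GM-CSF receptor chains differed least, with -0.42 for Csf2ra, -0.31 for Csf2rb and -0.66 for Csf2rb2, and the call of Csf2rb was lost in 4 of 6 fits that left out an array. Il3ra was the only member called higher (0.62). Against RB, 7 of the 10 were called lower and 3 higher, with a median of -0.80.

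Of 14 tested STAT and SOCS signalling genes, which act behind these receptors, 8 were called lower and 4 higher, with a median of -0.56 (RB: 7 lower and 4 higher, median -0.38). Stat5b (-1.79), Stat3 (-1.56) and Stat6 (-1.11), the factors that carry the signals of these cytokines, were lower in MDSC. Socs3, the inhibitor that IL-6 and G-CSF induce through STAT3, was at 8.02, 8.11 and 8.20 log2 in MDSC and at 10.95, 11.00 and 10.80 log2 in GFW, 7.02-fold lower. Other inhibitors, Cish (3.95) and Socs1 (1.15), were higher in MDSC, on non-overlapping arrays, as were Bcl2l1 (0.47) and Tyk2 (0.40), and Tyk2 was lower against RB (-1.26). The same signs of the inhibitors were called against RB, with 3.57 for Cish, 1.98 for Socs1 and -1.06 for Socs3.

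Genes of nitric oxide and arginine metabolism did not lean to one side against GFW. Of 17 tested, 6 were called higher in MDSC and 6 lower (all genes: 32.3% higher, 30.0% lower). The median of 0.01 became -0.12 when the 6 arrays were normalised again among themselves. Against RB, 8 were called higher and 3 lower, with a median of 0.22. Arg2, the mitochondrial arginase, was at 8.29, 8.09 and 8.37 log2 in MDSC and at 10.56, 10.77 and 10.63 log2 in GFW, 5.29-fold lower. Against RB it was higher in MDSC by 1.11. Transporters of arginine and the polyamine enzyme behind arginase were higher in MDSC: Slc7a2 was at least 4.22-fold, Slc7a1 5.6-fold and Srm, spermidine synthase, 9.04-fold higher than in GFW. Srm was at 10.40, 10.23 and 10.55 log2 in MDSC and at 6.99, 7.39 and 7.27 log2 in GFW. Odc1, which feeds polyamine synthesis, differed by 0.65, and Gch1, which makes the cofactor of iNOS, by -0.54. All 4 of the higher genes named here were also called higher against RB.

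Suppressor factors, the effectors by which such cells restrain T cells, were likewise mixed. Of 16 tested, 4 were called higher in MDSC, 7 lower and 5 neither, with a median of -0.21 (RB: 5 higher and 6 lower, median -0.15). Over all genes, 32.3% were called higher and 30.0% lower against GFW. Higher were Nt5e, the ecto-enzyme CD73 (at least 2.17-fold), Arg1, Cybb, the catalytic subunit of the phagocyte oxidase (2.06-fold), and Tgfb1 (0.63). Ptgs2, the inducible cyclooxygenase, was at 6.26, 5.49 and 5.57 log2 in MDSC and at 9.13, 8.91 and 9.24 log2 in GFW, 9.99-fold lower. Entpd1, the ecto-enzyme CD39 that acts upstream of Nt5e, was 5.94-fold lower (7.71 ± 0.14 against 10.28 ± 0.09 log2, SD, n = 3). Nos2 and Il10 (-0.83) were lower too. S100a8 was near the top of the scale in both groups, at 12.76, 12.85 and 12.79 log2 in MDSC and 12.97, 13.01 and 12.94 log2 in GFW, and its difference of -0.17 was not called (adjusted p = 0.135). Cd274, the ligand PD-L1, was not called either (0.22, SE 0.18). Ido1 differed by -0.22 and was not called.

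Primary granule genes were higher in MDSC than in either set of mobilised cells. Of 11 tested, 9 were called higher and 1 lower, with a median of 3.10, and against RB also 9 and 1, with a median of 2.89. Elane, neutrophil elastase, was at 11.44, 11.38 and 11.19 log2 in MDSC and at 7.30, 6.90 and 6.44 log2 in GFW, 22-fold higher (difference 4.46, SE 0.22, adjusted p = 1.33e-10). Ctsg, cathepsin G, was 18.5-fold and Mpo, myeloperoxidase, 11.5-fold higher. Mpo was at 11.44, 11.37 and 11.32 log2 in MDSC and at 7.47, 8.56 and 7.53 log2 in GFW, so that the highest GFW array still lay well below the MDSC arrays. Ms4a3, a membrane protein of granulocyte-monocyte progenitors, differed by 5.11 and Cst7, an inhibitor of cathepsins, by 3.73. Srgn, the proteoglycan that packs granule proteins and is made by most blood cells, was lower (-1.35), and Gfi1 was not called (0.13). Bpi was below the filter.

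Secondary and tertiary granule genes divided. Of 18 tested, 6 were called higher in MDSC and 9 lower, with a median of -0.35. The antimicrobial protein genes Camp, cathelicidin (13.7-fold), Ltf, lactoferrin (6.97-fold), and Ngp (2-fold) were higher, as was Cebpe, the factor that drives secondary granule genes (4.39-fold). Ltf was at 11.09, 11.30 and 11.22 log2 in MDSC and at 8.46, 8.28 and 8.45 log2 in GFW, and the groups did not overlap. Lcn2 was not called (-0.28). The metalloproteases of the list were lower: Mmp8 by 4.49-fold, Mmp25 by 10.2-fold and Mmp9 by 74.7-fold. Mmp9 was at 6.13, 6.09 and 5.71 log2 in MDSC and at 12.22, 12.22 and 12.15 log2 in GFW. Against RB, 10 genes were called higher and 4 lower, with a median of 0.58. Mmp8 (-0.10) was not called there and Mmp25 was higher in MDSC (0.56), while Mmp9 (-1.36) was lower against both sets.

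Genes of mature neutrophils were lower in MDSC than in GFW without exception among the calls. Of 21 tested, 18 were called lower and none higher, with a median of -2.54. Cxcr2, the receptor that draws neutrophils out of marrow, was at 8.49, 8.35 and 8.42 log2 in MDSC and at 12.81, 12.90 and 12.65 log2 in GFW, 20.6-fold lower. Acod1, which makes itaconate, was lower by 20.5-fold, Il1f9, a cytokine of the IL-1 family, by 13.1-fold, and the formyl peptide receptor Fpr2 by 11.9-fold. The stefin genes, small inhibitors of cathepsins whose copies are near-identical, were high in both groups. Stfa1 was at 12.54, 12.78 and 12.51 log2 in MDSC and at 12.50, 12.50 and 12.57 log2 in GFW, with overlapping arrays and no call. Against RB the same list gave 11 called higher in MDSC and 7 lower, with a median of 0.44. Stfa1 was higher than RB by 6.53, Il1f9 by 2.35 and Cxcr2 by 0.44. The summed signal of the list was 14.98 to 15.07 log2 in MDSC, 16.39 to 16.43 log2 in GFW and 13.69 to 13.86 log2 in RB. By this sum, in which the brightest members weigh most, MDSC lay between both sets of mobilised cells. Single members need not: Acod1 was lower than in GFW (-4.36) and than in RB (-1.4). The direction of the list's median depends on which set is taken. In bulk samples, fewer cells of a type and less RNA per cell cannot be told apart.

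**Figure D3:**
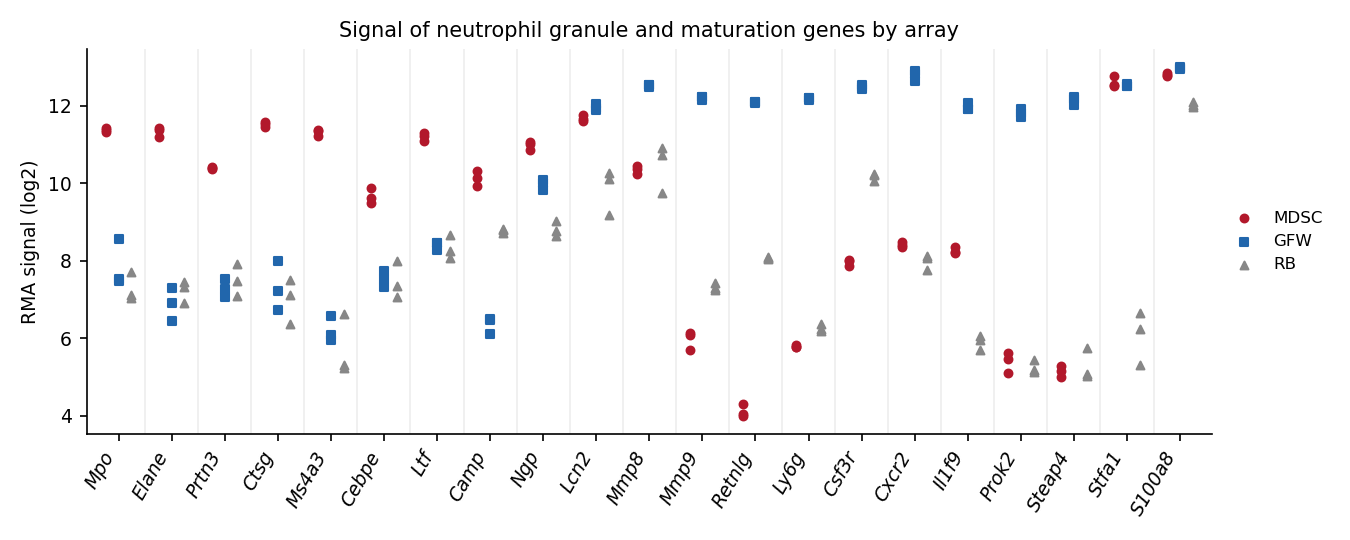
RMA signal (log2) of neutrophil genes on each array of the MDSC, GFW and RB groups, from primary granule genes (left) through secondary and tertiary granule genes to genes of mature neutrophils (right). MDSC arrays lie above both other groups from Mpo to Ngp, and GFW arrays lie above both from Mmp8 to Steap4.

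Progenitor genes gave a different order again. Of 21 tested, 4 were called higher in MDSC than in GFW and 9 lower, with a median of -0.29, but 12 higher and 2 lower against RB, with a median of 0.40. The 9 lower calls became 6 when each array was centred on its median, and 7 to 8 with an array left out. Prom1, which encodes the surface protein CD133, was at 7.49, 7.78 and 8.20 log2 in MDSC and at 5.01 ± 0.15 log2 in GFW (SD, n = 3), at least 4.85-fold higher. Myb, a factor that keeps progenitors dividing, was 3.1-fold higher (9.06 ± 0.07 against 7.43 ± 0.37 log2, SD, n = 3), and Erg was 2.64-fold higher. Kit and Flt3 were lower. Angpt1 was called lower too (fitted difference -0.87), but it was near background in both groups. Its mean was 4.39 log2 in MDSC and 5.26 log2 in GFW. The stem cell factors Meis1 (-0.23) and Hoxa9 (-0.25) overlapped between the groups and were not called.

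Monocyte genes differed little on balance from GFW and strongly from RB. Of 19 tested, 6 were called higher than in GFW and 9 lower, with a median of -0.23. Against RB none was higher and 16 were lower, with a median of -3.34. Vcan, a matrix proteoglycan made by monocytes, was at 9.52, 9.71 and 9.64 log2 in MDSC and at 5.31, 5.78 and 5.16 log2 in GFW, at least 16-fold higher. Klf4 (1.77), S100a4 (1.45) and Ccr2, the receptor that draws monocytes out of marrow (0.83), were also higher. The members with the largest differences the other way were Nr4a1, an orphan nuclear receptor that is also an immediate early gene (12.8-fold lower), Treml4 (12.7-fold lower) and the integrin Itgal (11.9-fold lower). Ace, like Nr4a1 and Treml4 a gene of patrolling monocytes, was not called (-0.23). F13a1 (5.45 to 6.30 log2 on the 6 arrays) and Fn1 (5.42 to 6.02 log2) overlapped between the groups, were not called, and were at 11.81 and 12.24 log2 in RB.

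Of 20 macrophage genes tested, 7 were called higher in MDSC and 11 lower, with a median of -0.61 against both GFW and RB. Gpnmb, Mmp12, Mrc1 and Msr1, a scavenger receptor (at least 6.52-fold), were higher, as was Trem2, a lipid-sensing receptor (6.54-fold). Trem2 was at 9.03, 8.78 and 9.35 log2 in MDSC and at 6.37, 6.18 and 6.48 log2 in GFW. Against RB both Msr1 (-1.22) and Trem2 (-0.51) were lower. Slc40a1, the iron exporter of red pulp macrophages, was at 6.98, 7.04 and 7.41 log2 in MDSC and at 11.44, 11.44 and 11.50 log2 in GFW, 20-fold lower, and Spic, the factor that specifies those cells, was at least 4.16-fold lower. Apoe, the lipid carrier that macrophages secrete, was lower (-1.33). The complement genes C1qb (-2.09) and C1qa (-1.43) and the macrophage protein Cd5l (at least 1.91-fold) were lower in MDSC too. The GFW cells came from spleen and the MDSC from marrow, and the part of tissue in these differences was not tested.

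Of 12 tested MHC class II presentation genes, 8 were called lower in MDSC and 1 higher, with a median of -0.91 (RB: 8 lower and 2 higher, median -0.67). H2-Ab1, a class II chain, was at 9.87, 9.68 and 9.90 log2 in MDSC and at 11.53, 11.66 and 11.49 log2 in GFW, 3.34-fold lower, and Ciita, the class II activator, was 1.8-fold lower. Ifi30, a thiol reductase of the antigen-processing compartment, was the member called higher (1.47), and it was lower against RB (-1.13). Dendritic cell genes went both ways, with 4 of 12 called higher and 5 lower (RB: 3 and 4). Irf4 (1.41), Batf3 (1.40) and Ccr7 (1.18) were higher in MDSC, and Dpp4 was at least 6.44-fold and Itgax, which encodes CD11c, 2.36-fold lower. Of 15 co-stimulatory and checkpoint ligands, 3 were higher and 8 lower (RB: 3 and 9). Pvr was 4.24-fold higher, Cd86 3.34-fold lower and Vsir, the ligand VISTA, 3.68-fold lower, while Cd80 (0.26) was not called.

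Among markers of other cell types, B cell genes were lower in MDSC than in GFW, and the other lists were short or mixed. Of 8 B cell and antibody genes tested, 8 were called lower in MDSC than in GFW, with a median of -1.06, and 3 were lower against RB, with a median of -0.10. Ighm, the IgM heavy chain, was at 9.27, 9.41 and 9.47 log2 in MDSC and at 11.89, 11.66 and 11.61 log2 in GFW, and Jchain, the joining chain of plasma cells, was at least 8.42-fold lower. The summed signal of the list was 9.90 to 10.06 log2 in MDSC, 12.01 to 12.20 log2 in GFW and 10.92 to 11.06 log2 in RB. Of the 5 T and NK cell genes tested, 3 were called lower, among them Klrd1 (at least 5.53-fold), and the T cell receptor genes Cd3e and Cd3g lay below the filter. Of 10 eosinophil, basophil and mast cell genes, 6 were higher and 3 lower (RB: 6 and 1). The eosinophil granule gene Prg2 was 9.68-fold and the basophil protease Mcpt8 3.68-fold higher in MDSC, while the eosinophil surface genes Siglecf (-2.97) and Ccr3 (at least 2.31-fold) were higher in GFW. Il5ra and Gata1, which define eosinophils and mast cells, were below the filter. Of 8 megakaryocyte genes 2 were higher, Vwf (2.06) and Itgb3 (1.34), and 3 lower (RB: 2 and 0). Of 6 erythroid genes, 3 were lower (RB: 0), and Tfrc, the transferrin receptor that every dividing cell uses, was 11-fold higher. The megakaryocyte counts lie near the shares of all genes. With each array centred on its median, the lower calls fell to 1 for the megakaryocyte list. They fell to 2 for the erythroid list and to 2 for the T and NK cell list. The part of such cells in the other differences was not tested.

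Of 20 chemokine genes tested, 9 were called higher in MDSC and 5 lower, with a median of 0.37 (RB: 10 and 5, median 0.76). Ccl7 was at 10.54, 10.18 and 10.43 log2 in MDSC and at 6.93, 6.58 and 6.70 log2 in GFW, 12.5-fold higher, and Ccl12 was at least 3.54-fold higher. Both bind Ccr2. Ccl2, another ligand of Ccr2, was at 11.28 to 11.48 log2 in MDSC and 11.27 to 11.45 log2 in GFW and was not called (0.05). Cxcl2, which draws neutrophils, was at 7.14, 6.84 and 7.74 log2 in MDSC and at 12.20, 12.17 and 12.16 log2 in GFW, 30.6-fold lower. Cxcl1, which binds the same receptor, was lower too (-0.65, a call lost in 2 of 6 fits that left out an array), and Cxcl3 was not called (0.22). Of 16 inflammatory cytokine genes, 3 were higher and 9 lower (RB: 4 and 7). Tnf was 2.85-fold higher (10.02 ± 0.16 against 8.51 ± 0.21 log2, SD, n = 3), whereas Il1b, Il18 (-2.19), Osm (-1.90) and Il1rn, the IL-1 receptor antagonist (-1.78), were lower. Against RB the directions of Tnf, Il1b, Il18 and Osm held, and Il1rn was higher in MDSC (0.51). Of 9 chemokine receptors, 6 were lower and 2 higher against GFW, but 2 lower and 2 higher against RB, with a median of -0.72 and 0.02 respectively. Against GFW, Ccr1 differed by -2.18 and Cxcr4, the retention receptor of marrow, by -0.69.

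Innate sensing genes were lower almost throughout. Of 16 Toll-like receptor genes, 15 were called lower and 1 higher, with a median of -1.11, and 13 and 1 against RB. Cd14, the co-receptor for endotoxin, was at 7.76, 7.56 and 7.88 log2 in MDSC and at 11.44, 11.49 and 10.90 log2 in GFW, 11.6-fold lower. Tlr1 was lower by 9.65-fold, Tlr6 by 5.2-fold and the shared adaptor Myd88 by 3.98-fold. Tlr4 differed less (-0.43) and was higher in MDSC than in RB by 1.22. Cd180, a relative of Tlr4, was the member called higher (1.81). NF-kB subunits and feedback inhibitors followed, with 11 of 12 called lower, none higher and a median of -1.02. Nfkbiz was 8.93-fold and Nfkbia 2.34-fold lower, and against RB all 12 were lower with a median of -1.58.

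Interferon response genes were lower in MDSC than in both sets. Of 13 type I genes tested, 11 were called lower and none higher, with a median of -2.47 (RB: 13 lower, median -2.55). Oasl2 was at 5.11 ± 0.11 log2 in MDSC and at 11.09, 11.15 and 10.94 log2 in GFW (SD, n = 3), at least 51.3-fold lower. Isg15, a ubiquitin-like antiviral protein, was 13.6-fold lower (5.52 ± 0.23 against 9.29 ± 0.07 log2, SD, n = 3). Ifit1, which binds foreign RNA, was 12.1-fold and Irf7, the amplifier of type I interferon, 10.1-fold lower. Mx1 (-0.36) and Mx2 (-0.44) were near background in both groups and not called. C57Bl/6 mice carry a defective Mx1 gene. Of 12 interferon gamma genes, 11 were lower and none higher, with a median of -1.98 (RB: 11 lower, median -1.84). Irgm2, a GTPase of vacuole defence, was at 6.86, 6.84 and 7.06 log2 in MDSC and at 10.47, 10.25 and 10.43 log2 in GFW, 11-fold lower. Igtp was 6.7-fold, Irf1 4.28-fold and Tap1, a peptide transporter for MHC class I, 3.94-fold lower.

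The promoters of Isg15 and Ifit1 are shown because both genes were lower on arrays that did not overlap and hold the repeat of the interferon response element, GAAA and GAAA with any 2 bases between them, in capitals. Each is the 250 bases before the start, from RefSeq on GRCm38.p6. Isg15 lies at chr4:156200819-156201068, minus strand, with 3 overlapping matches that begin 78, 72 and 66 bases before the start. Ifit1 lies at chr19:34640639-34640888, plus strand, with 2 matches on the other strand that begin 104 and 85 bases before the start.
Isg15: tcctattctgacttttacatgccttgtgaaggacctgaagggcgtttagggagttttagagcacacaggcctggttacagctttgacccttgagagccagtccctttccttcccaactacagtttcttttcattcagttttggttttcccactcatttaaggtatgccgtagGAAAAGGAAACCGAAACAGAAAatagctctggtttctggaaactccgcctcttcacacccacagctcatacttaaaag
Ifit1: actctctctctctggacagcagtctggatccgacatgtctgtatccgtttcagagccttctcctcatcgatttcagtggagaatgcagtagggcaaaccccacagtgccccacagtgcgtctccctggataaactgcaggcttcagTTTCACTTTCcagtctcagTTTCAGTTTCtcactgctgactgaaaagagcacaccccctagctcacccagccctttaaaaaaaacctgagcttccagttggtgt
On either strand these letters occur in 2.98% of the 32851 windows. They occur in 4 of the 9 windows of called type I genes (Ifit1, Ifit3, Isg15 and Rsad2) and in 6 of the 13 windows of called interferon gamma genes.

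Cell cycle genes were higher in MDSC than in both sets. All 19 mitosis genes tested were called higher, with a median of 2.67, as were 21 of 22 DNA replication genes, with a median of 2.15. Against RB the counts were 19 and 22. Bub1, a spindle checkpoint kinase, was at 9.62, 9.66 and 9.69 log2 in MDSC and at 5.68, 5.89 and 5.68 log2 in GFW, 15-fold higher. Cdk1, the kinase that starts mitosis, was at 9.92, 10.04 and 10.19 log2 in MDSC and at 6.17, 7.04 and 7.03 log2 in GFW, 9.85-fold higher, and its partner Ccnb2 was 6.61-fold higher. Mki67, the proliferation antigen, was 4.49-fold higher (10.76 ± 0.06 against 8.59 ± 0.09 log2, SD, n = 3). Of the replication genes, the ribonucleotide reductase subunits Rrm1 and Rrm2 were 10.7-fold and 8.99-fold and the helicase subunit Mcm6 6.86-fold higher. Ung, a repair glycosylase, was the replication gene not called (0.39, adjusted p = 0.0556). The range of the mitosis genes was 1.78 to 3.91, so the smallest difference of the list still passed 2-fold.

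The promoters of Cdk1 and Ccnb2 are shown because the genes work as a pair, were higher together and hold both CCAAT boxes (CCAAT, or ATTGG on the other strand) and the letters TTTGAA of the cell cycle homology region, in capitals. Each is the 250 bases before the start, from RefSeq on GRCm38.p6: Cdk1 at chr10:69352913-69353162 and Ccnb2 at chr9:70421555-70421804, both on the minus strand.
Cdk1: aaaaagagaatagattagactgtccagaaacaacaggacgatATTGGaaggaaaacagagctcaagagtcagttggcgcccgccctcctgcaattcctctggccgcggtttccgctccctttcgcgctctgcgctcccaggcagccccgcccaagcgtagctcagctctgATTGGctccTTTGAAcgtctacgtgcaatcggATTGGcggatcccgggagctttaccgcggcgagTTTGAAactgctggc
Ccnb2: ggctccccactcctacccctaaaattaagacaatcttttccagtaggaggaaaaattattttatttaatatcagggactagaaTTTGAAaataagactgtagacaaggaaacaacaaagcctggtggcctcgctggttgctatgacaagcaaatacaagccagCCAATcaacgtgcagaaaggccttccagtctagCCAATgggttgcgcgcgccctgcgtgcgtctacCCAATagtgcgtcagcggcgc
CCAAT occurs in 14 of the 15 windows of called mitosis genes and in 33.8% of all windows, and TTTGAA in 7 of the 15 and in 16% of all. The CCAAT boxes of Ccnb2 begin 87, 54 and 21 bases before the start, and those of Cdk1 lie at 208, 80 and 48 bases before it. TTTGAA begins 71 and 15 bases before the start in Cdk1. In Ccnb2 it begins 167 bases before the start, upstream of all its CCAAT boxes. These matches describe letters and do not show a site in use. CCAAT was also found in 14 of 17 windows of called cholesterol synthesis genes and in 14 of 18 of called DNA replication genes, and so is not found in mitosis genes alone.

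Lipid genes were higher in MDSC. Of 18 cholesterol synthesis genes, 17 were called higher and none lower, with a median of 1.94, and 18 higher against RB. Sqle, squalene epoxidase, was at 10.24, 9.94 and 10.15 log2 in MDSC and at 6.28, 5.65 and 6.05 log2 in GFW, 17.3-fold higher. Fdps was 14.8-fold and Cyp51 9.5-fold higher, and Srebf2, the factor that switches the pathway on, 1.74-fold. Sc5d was not called (-0.22). Of 15 lipid uptake and storage genes, 12 were higher and 3 lower, with a median of 1.51 (RB: 12 and 1, median 1.66). Pparg, a lipid-sensing nuclear receptor, was at 10.32, 10.19 and 10.44 log2 in MDSC and at 5.49, 6.31 and 6.36 log2 in GFW, 19.2-fold higher. The fatty acid desaturases Scd1 and Fads2 were at least 27.3-fold and 20.7-fold higher, and Cd36, a fatty acid and lipoprotein receptor, 9.1-fold. Abca1, which exports cholesterol from cells, was at 5.29, 5.40 and 5.07 log2 in MDSC and at 8.81, 8.23 and 8.44 log2 in GFW, at least 8.66-fold lower. Abcg1, another cholesterol exporter, was called higher (0.53), so the exporters did not share a direction. The same signs were called against RB (Sqle 3.39, Abca1 -1.49, Abcg1 0.38).

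Other metabolic genes differed less. Of 15 amino acid and stress response genes, 8 were called higher and 3 lower (RB: 14 and 0), led by Shmt2 (10.8-fold) and Psat1 (8.22-fold), enzymes of serine and one-carbon metabolism, and the amino acid transporter Slc7a5 (4.23-fold). Of 18 glycolysis and hypoxia genes, 7 were higher and 5 lower, with a median of 0.15, whereas against RB 13 were higher and 1 lower, with a median of 0.78. Slc2a3, a glucose transporter, was 6.22-fold and Pfkfb4 4.73-fold lower, and Pdk1, which holds pyruvate out of mitochondria, 2.96-fold higher. Against RB, Slc2a3 was higher in MDSC (0.85).

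**Figure D4:**
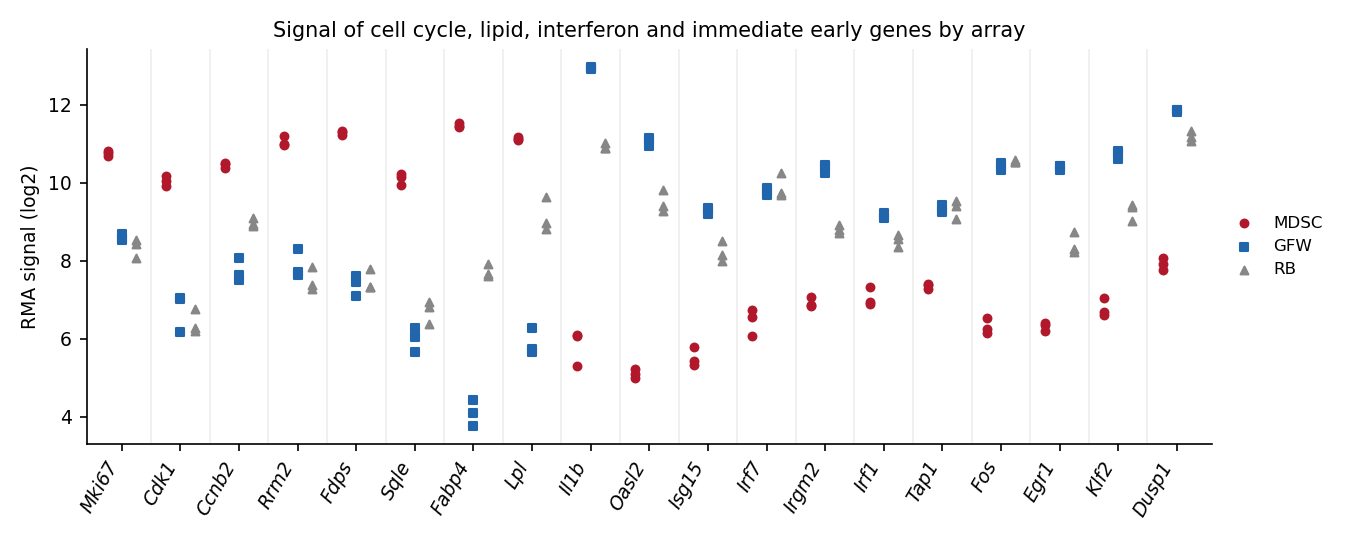
RMA signal (log2) of cell cycle genes (Mki67 to Rrm2), lipid genes (Fdps to Lpl), Il1b, interferon response genes (Oasl2 to Tap1) and immediate early genes (Fos to Dusp1) on each array of the MDSC, GFW and RB groups. The MDSC arrays lie above both other groups from Mki67 to Lpl and below both from Il1b to Dusp1.

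Phagocyte machinery gave mixed results. Of 22 lysosome and cathepsin genes, 14 were called higher and 2 lower, with a median of 0.47, and 9 and 4 against RB, with a median of 0.07. Besides Atp6v0d2, Ctsk, cathepsin K, was at least 4.54-fold higher and Lamp1, a membrane protein of lysosomes, 1.71-fold, while Ctse was 12.5-fold lower. Of 14 eicosanoid genes, 5 were higher and 6 lower (RB: 8 and 4). Pla2g7, a lipase of platelet-activating factor, was at 6.17, 6.38 and 6.78 log2 in MDSC and at 11.29, 11.26 and 11.16 log2 in GFW, 27.7-fold lower. Hpgds, the prostaglandin D synthase of blood cells, was 5.37-fold and Ltc4s, which makes leukotriene C4, 2.94-fold higher. Of 7 Fc receptor genes, 3 were higher and 4 lower (RB: 0 and 3). Fcgr4 was 7.89-fold lower, and Fcgr1 (1.31) and the inhibitory Fcgr2b (1.56) were higher in MDSC than in GFW, although Fcgr1 was lower than in RB (-1.78). Of 16 C-type lectin receptors, 5 were higher and 7 lower (RB: 6 and 7). Clec4a1 was 4.04-fold and Clec4d 5.8-fold lower, and Clec5a 2.21-fold higher. Of 6 NADPH oxidase genes, 3 were higher, with the proton channel Hvcn1 at 2.22 and Cybb at 1.04, and 2 lower, Ncf4 (-0.90) and Rac2 (-0.89).

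Myeloid transcription factors were even against GFW, with 9 of 20 higher and 9 lower, and 6 and 9 against RB. Besides Pparg, Cebpe and Klf4, Bhlhe41, a repressor, was at least 3-fold higher. Spi1, the factor PU.1 of all myeloid cells, was at 10.32, 10.05 and 10.09 log2 in MDSC and at 11.36, 11.39 and 11.39 log2 in GFW, 2.34-fold lower. Cebpd was 3.48-fold lower than in GFW and not called against RB (0.11). Irf8, which steers progenitors to monocytes, differed by -0.39 from GFW, a call lost in 3 of 6 fits that left out an array, and by -2.10 from RB.

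Immediate early genes, which rise within minutes of stimulation and also when tissue is dissociated, were lower in MDSC. Of 20 tested, 17 were called lower and 2 higher, with a median of -2.19, and 18 and 1 against RB. Fos was at 6.16, 6.25 and 6.53 log2 in MDSC and at 10.32, 10.52 and 10.42 log2 in GFW, 17.2-fold lower. Egr1 was 17-fold, Klf2 15.5-fold and Dusp1, a phosphatase that ends MAP kinase signals, 15.3-fold lower. Zfp36, which speeds the decay of cytokine mRNA, was at 11.04, 11.19 and 10.78 log2 in MDSC and at 13.09, 13.13 and 13.16 log2 in GFW, 4.34-fold lower. Higher were Klf4 (1.77) and Atf3 (0.35), and the call of Atf3 was lost in 2 of 6 fits that left out an array. The GFW cells were dissociated from spleen and sorted and the MDSC came from culture, and the part of handling in the Il1b, NF-kB and immediate early differences was not tested.

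**Figure D5:**
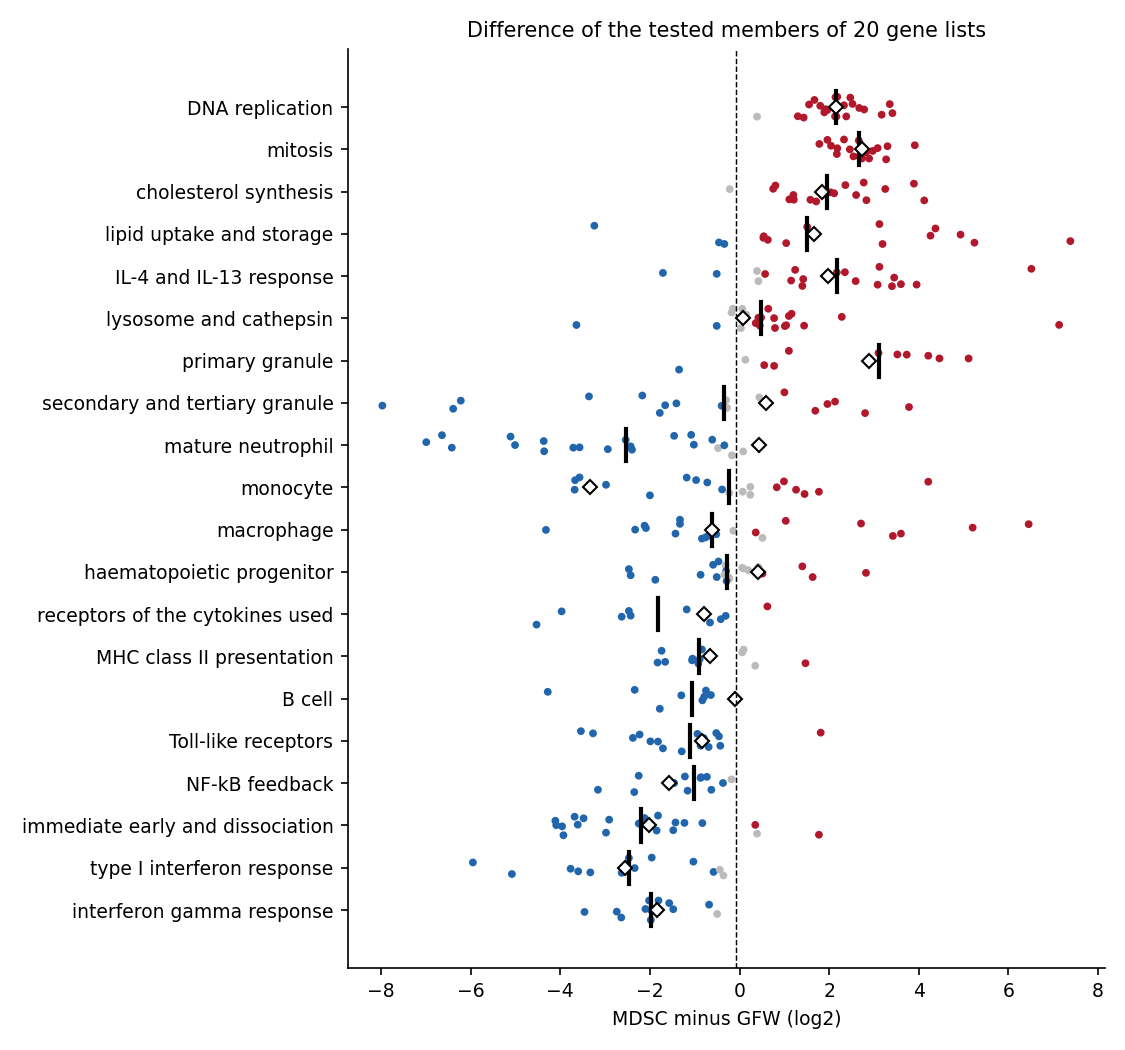
Difference between MDSC and GFW (log2) of the tested members of 20 gene lists. Red points are genes called higher in MDSC, blue points genes called lower and grey points genes not called, a black bar is the list's median, an open diamond the list's median against RB, and the dashed line the median of all genes (-0.08). Bar and diamond lie apart for the mature neutrophil (-2.54 and 0.44) and monocyte lists (-0.23 and -3.34) and close together for mitosis (2.67 and 2.74).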

How the data were processed

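The deposited log2 signals were used as the authors made them. Total RNA was labelled as biotin cRNA and hybridised to single-colour Affymetrix arrays, per the labels' protocols, and signals were summarised with oligo and RMA, per the submitters' processing notes (with no version, and no genome build for the annotation). RMA normalises all arrays to one distribution, so a shift of all genes cannot be seen. Of 41345 probe sets, 23521 had 1 gene symbol, 1814 several and 16010 none, and the last 2 kinds were left out. Each of the 22180 genes kept the probe set with the highest mean over the 15 arrays. Listed genes without such a probe set were not analysed here.

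limma 3.58.1 in R 4.3.3 fitted 1 mean per group over all 15 arrays, and p-values were adjusted by Benjamini-Hochberg over 14822 genes. Alternatives changed the arrays in the fit, the scaling, the filter, the probe set, the test and the comparison group. The same script was tested on simulated data. No pair of arrays held identical values. Group numbers do not pair the arrays: the correlations of same-numbered deviations were -0.01, -0.02 and -0.04. Named genes are the markers, the 15 largest called differences in each direction whose arrays did not overlap, and members of the gene lists. The 15 leave out predicted gene models, clone names, immunoglobulin and T cell receptor segments and genes that code for no protein, such as Mir290a. The comparison, its members and the lists were chosen with earlier results of these data known, and motifs other than that of STAT6 were chosen after values were seen. Of the 23521 probe sets with 1 symbol, 23328 had a gene identifier found among RefSeq genes. Promoters come from RefSeq (GRCm38.p6), and some called list members had none. Of 9 motifs searched on both strands in 8 lists, 4 are reported.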

Additional observations from a re-analysis of the deposited data

How the results depend on the processing

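Of the 227 genes named, no called gene changed direction under another scaling, filter, probe set choice, variance trend or with an array left out. Ccl2, Cd274, Cxcl3 and F13a1, which were not called, changed sign under at least one of these. The 60th percentile filter kept 219 of them, without Alox15, Arg1, Cd4, Cd8a, Cxcl1, Cxcl3, Ido1 and Il10. Of these genes, 28 lost their call when limma's treat tested for changes above 1.5-fold, which left 2456 genes higher and 1193 lower in all. Leaving out each array in turn gave 4484 to 4602 higher, 3803 to 3981 lower, 2393 to 2479 higher and 1111 to 1144 lower by at least 2-fold. With a replicate block, which these numbers do not call for as the arrays are not paired, 4799 were higher and 4431 lower.

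With RB in place of GFW, 1462 genes were higher by at least 2-fold, and the difference of 46 of the 227 genes had the opposite sign. Called higher against RB were Arg2 (1.11), Cd34 (0.96), Clec4d (0.61), Csf2rb (0.64), Csf2rb2 (0.51), Cxcr2 (0.44), Il1f9 (2.35), Il1rn (0.51), Itgax (0.87), Kit (3.44), Lcn2 (1.81), Mmp25 (0.56), S100a8 (0.77), Sc5d (1.82), Slc2a3 (0.85) and Tlr4 (1.22). Called lower were Atf3 (-2.01), Ccr2 (-2.31), Cd180 (-0.66), Cd80 (-1.06), Cybb (-0.91), F13a1 (-5.99), Fcgr1 (-1.78), Fn1 (-6.51), Ifi30 (-1.13), Il3ra (-0.77), Klf4 (-0.60), Msr1 (-1.22), Trem2 (-0.51) and Tyk2 (-1.26). Of opposite sign but not called against RB were Nos2 (0.21), Prok2 (0.14), Asprv1 (0.44), Angpt1 (0.14), Ccr1 (0.40), Ccr3 (0.27), Cebpd (0.11), Chil3 (-0.09), Fcgr2b (-0.34), Irf4 (-0.06), Lamp1 (-0.05), Ly6c2 (-0.25), Pvr (-0.37), Siglecf (0.16), Tgfb1 (-0.23) and Vcan (-0.31). Against the mean of RB and GFW, 14 had the opposite sign: Atf3 (-0.83), Ccr2 (-0.74), Cd80 (-0.40), Csf2rb (0.16), F13a1 (-2.96), Fcgr1 (-0.23), Fn1 (-3.14), Il3ra (-0.08), Kit (0.49), Lcn2 (0.77), S100a8 (0.30), Sc5d (0.80), Tlr4 (0.39) and Tyk2 (-0.43). The cause was not tested. Folds of genes near background are lower bounds only. Their log2 differences, such as those of Adam19 and Angpt1, are fitted values without that bound.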

Other observations

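Small RNA genes leaned to opposite sides by kind. Of 65 small nucleolar RNA genes tested, 36 were called higher in MDSC and 8 lower, with a median of 1.04, against 32.3% higher and 30.0% lower of all genes. Against RB, 24 were higher and 5 lower, with a median of 0.32. Of 165 microRNA genes, 14 were higher and 71 lower, with a median of -0.36 (RB: 17 higher and 44 lower, median -0.13). The 40th percentile of probe sets was 5.37 to 5.39 log2 on MDSC arrays and 5.53 to 5.55 log2 on GFW arrays. Centring each array on its median took the lower calls of all genes from 4444 to 3094. These small RNA counts were not repeated with centred arrays, and the part of this offset in them was not tested. These probe sets measure precursor or host transcripts on an array of total RNA, and no mature microRNA was measured.

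The microRNA gene Mir290a, chosen after its values were seen, was at 4.74, 3.81 and 3.45 log2 in MDSC and at 10.50, 10.43 and 9.77 log2 in GFW, at least 28.9-fold lower (fitted difference -6.23, SE 0.30, adjusted p = 9.19e-11). It was at 5.07, 5.11 and 4.21 log2 in RB. On the arrays coded GFK, titled Mo CD34+ ko and of the title prefix of GFW, it was at 10.06 ± 0.33 log2 (SD, n = 3). The arrays coded GFE, titled Mo CD34+ ex and also of that prefix, had it at 3.54 ± 0.10 log2 (SD, n = 3). GFK and GFE differ in title label, and the cause of these values was not tested. The mature forms of Mir290a are shown to identify the gene, with the seed (bases 2 to 8) in capitals. They come from RefSeq on GRCm38.p6, chr7:3218639-3218660 and chr7:3218674-3218697, plus strand.
mmu-miR-290a-5p: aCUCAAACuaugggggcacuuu
mmu-miR-290a-3p: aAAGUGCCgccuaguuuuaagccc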
